A study of Mus musculus with 6 samples.

Results

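Cadherins and protocadherins are the surface proteins through which neighbouring cells hold and recognise each other, and 56 of their genes had enough reads to describe in cultured mouse ovarian granulosa cells. The set held the 92 protein-coding genes named Cdh with a number, or with a name starting in Pcdh, among 55860 genes in the deposited count table. Of the 92 genes, 5 had no read in any library, 31 had 1 to 29 reads in all, and 56 had 30 or more. The 56 comprised 8 cadherins, 8 protocadherins that lie alone in the genome and 40 members of the clustered Pcdha, Pcdhb and Pcdhg families. The test's filter on low counts passed 53 of them.

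Messenger RNA was sequenced from granulosa cells of Il22r+/+ mice and of Il22r-/- mice, in which the gene of the interleukin-22 receptor is disrupted on both alleles, with 3 libraries for each genotype. The cells of both genotypes had been separated on a density gradient and kept 12 h in medium with serum. Strain, age, the disrupted exon and whether animals were pooled are not stated in the labels. The comparison asks how transcripts differ when this receptor gene is disrupted.

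The libraries held 14.95 to 18.12 M reads (M, mega-reads). Il22ra1, which encodes the ligand-binding chain of the receptor and is taken as the targeted gene, had 1, 5 and 4 reads in Il22r+/+ against 5, 2 and 0 in Il22r-/-, too few to check the genotype labels. Il22r-/- replicate 3 stood apart on the second principal component, which held 4.21% of the variance. Listed granulosa cell markers summed to between 7895 and 8887 counts per mega-read (CPM) in Il22r+/+ and between 9051 and 9829 CPM in Il22r-/-, with 6 of 11 tested higher and 2 lower. Foxl2 and Gja1 fell, Fshr had 1, 7 and 5 against 95, 109 and 109 reads, and Cyp19a1 and Amh were below the filter. Mesothelial and ovarian surface markers summed to between 975.3 and 993.7 CPM in Il22r+/+ and between 194.4 and 209.3 CPM in Il22r-/-, with 8 of 12 lower, none higher and none at 0 reads. Macrophage markers ran the other way, 8.83 to 11.6 CPM against 28.4 to 87.2 CPM, with 9 of 9 tested markers higher. Smooth muscle and pericyte markers summed to 282.1 to 335.1 CPM against 364.0 to 593.7 CPM (5 of 8 tested higher, 1 lower), and theca and stroma markers to 335.3 to 430.3 CPM against 134.4 to 257.6 CPM (1 of 5 tested higher, 1 lower). The part of these other cells in the values below was not tested, and in bulk RNA fewer cells of a type and less RNA per cell cannot be told apart.

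Classical cadherins bind the same cadherin on the next cell in the presence of calcium and are tied inside the cell to the actin cytoskeleton through catenins. N-cadherin, the product of Cdh2, is the main cadherin of granulosa cells and E-cadherin is typical of epithelia. Clustered protocadherins are best known from neurons, where promoter choice gives each cell its own combination of surface isoforms. Each Pcdha and Pcdhg gene has its own first exon, which is spliced to constant exons shared by the whole cluster, whereas Pcdhb genes each consist of a single coding exon.

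Between the genotypes, 33 of the 53 tested genes changed (62.3%), 6 higher and 27 lower in Il22r-/-. Among all 15227 tested genes 45.7% were called, 23.6% higher and 22.1% lower, by the quasi-likelihood test of edgeR at a Benjamini-Hochberg adjusted p under 0.05. The median log2 fold change (Il22r-/- minus Il22r+/+) was -0.53 over the 53 genes and 0.03 over all tested genes. In 38 of the 53 genes the libraries of the 2 genotypes did not overlap, against 56.0% of all tested genes. The members of a cluster lie in a single locus and share sequence, so these counts are not counts of independent events. Scaled by library size alone, 63.6% of all called genes were higher in place of 51.6% and the median over all genes was 0.13, while 7 of the set were called higher and 25 lower.

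**Figure D1:**
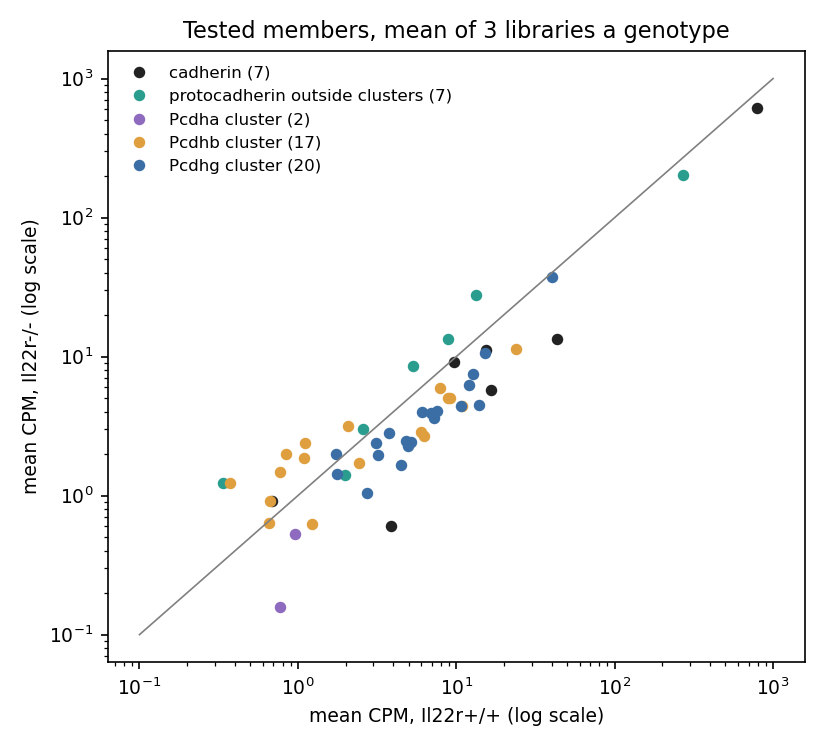
Mean CPM of the 53 tested cadherin and protocadherin genes in Il22r+/+ (x axis) and Il22r-/- (y axis), both on log scales, with a point for each gene coloured by family and a line of equal level. Most Pcdhg points lie below the line, and Cdh2 lies farthest to the upper right at 790.8 and 618.5 CPM.

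Among the cadherins, Cdh2 stood far above the others, and 5 of 7 tested cadherins were lower in Il22r-/- with none higher. Among all tested genes 22.1% were called lower and 23.6% higher. Per gene length, on the deposited FPKM scale, Cdh2 was at 100.8 ± 2.44 FPKM (SD, n = 3) in Il22r+/+, and the next cadherin, Cdh3, at 10.2 ± 0.163 FPKM. Cdh2 made up 85.7% of the summed cadherin FPKM in Il22r+/+ and 90.7% in Il22r-/-. Of all reads on the 92 genes, 56.0% fell on Cdh2.

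Cdh2 (ENSMUSG00000024304, mm10 chromosome 18, 16588877 to 16809246, minus strand) had 803, 802 and 767 CPM in Il22r+/+ and 711, 562 and 583 CPM in Il22r-/-. Every Il22r-/- library was lower than every Il22r+/+ library. The log2 fold change was -0.35 ± 0.10 (standard error), 1.28-fold lower, by edgeR with an adjusted p of 0.0153. The call was lost with library size as the only scaling (-0.25, edgeR adjusted p = 0.0704) and without Il22r+/+ replicate 1, Il22r+/+ replicate 2 or Il22r-/- replicate 2 (edgeR adjusted p = 0.0662, 0.0579 and 0.0511).

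Cdh3, which encodes P-cadherin, a classical cadherin of epithelia and placenta, lies next to the E-cadherin gene Cdh1 on chromosome 8. Cdh3 (ENSMUSG00000061048, 106510891 to 106557297, plus strand) had 44.1, 42.8 and 43.5 CPM in Il22r+/+ and 11.7, 15.7 and 12.6 CPM in Il22r-/-. The SD of the Il22r+/+ libraries was 0.628 CPM, and the groups did not overlap. Cdh3 fell 3.26-fold (log2 fold change -1.70 ± 0.12, edgeR adjusted p = 2.16e-06). Its neighbour Cdh1 had 4, 4 and 4 reads against 8, 2 and 5, below the limit of 30 reads set for description.

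Cdh11, the cadherin of mesenchymal and bone-forming cells, fell 2.87-fold. The part of mesothelial cells, with 8 of 12 markers lower in the same libraries, in the Cdh3 and Cdh11 values was not tested. Stromal markers moved in both directions, Dcn being called lower (log2 fold change -4.50), Col1a2 called higher (5.24) and Lum, Pdgfra and Col1a1 not called. Cdh11 (ENSMUSG00000031673, chromosome 8, 102632095 to 102785642, minus strand) had 16.7, 15.1 and 18.1 CPM in Il22r+/+ and 5.99, 5.34 and 6.04 CPM in Il22r-/-, with no overlap (log2 fold change -1.52 ± 0.14, edgeR adjusted p = 1.28e-05). As Cdh2 changed less than Cdh3 and Cdh11, the FPKM ratio of Cdh2 to Cdh3 was 9.88 ± 0.294 in Il22r+/+ and 25.9 ± 6.90 in Il22r-/-, and that of Cdh2 to Cdh11 was 52.8 ± 5.86 and 117.9 ± 12.3.

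Cdh23 encodes a long cadherin known from the tip links of inner ear hair cells. Cdh23 (ENSMUSG00000012819, chromosome 10, 60302748 to 60696490, minus strand) had 59, 63 and 74 reads in Il22r+/+ against 17, 10 and 6 in Il22r-/-. Its log2 fold change of -2.63 ± 0.33 (6.2-fold lower, edgeR adjusted p = 0.000106) was the lowest fitted value among the 53 genes. At 0.234 FPKM in Il22r+/+ the transcript was scarce.

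Cdh13 encodes T-cadherin, which has no cytoplasmic part and is held in the membrane by a lipid anchor. It had 14.7, 14.8 and 16.6 CPM in Il22r+/+ and 12.7, 8.43 and 12.5 CPM in Il22r-/- (log2 fold change -0.46 ± 0.16, edgeR adjusted p = 0.042). This call was lost in 8 of 16 alternative analyses, with adjusted p-values from 0.0122 to 0.202 over the 16. Among the 8 were the fits without any 1 of the Il22r+/+ replicates (edgeR adjusted p = 0.0878, 0.0825 and 0.143) and without Il22r-/- replicate 2 (edgeR adjusted p = 0.119).

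The type II cadherin genes Cdh24 and Cdh10 did not pass. Cdh24 was at 9.72 ± 0.363 and 9.12 ± 1.35 CPM (edgeR adjusted p = 0.635). Cdh10 had 12, 12 and 11 reads in Il22r+/+ against 31, 11 and 8 in Il22r-/-, so a single Il22r-/- library was high. Its log2 fold change of 0.42 became -0.31 without Il22r-/- replicate 1.

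Cdh5 encodes VE-cadherin, the junctional cadherin of endothelium, and was too scarce for the test. It had 2, 0 and 0 reads in Il22r+/+ against 20, 38 and 4 in Il22r-/-. Pooled, this was 2 against 62 reads, a ratio per library size of 31.9 (exact 95% interval 8.46 to 269.2, counting error only). Listed endothelial markers as a whole summed to between 7.78 and 9.59 CPM in Il22r+/+ and between 7.55 and 10.8 CPM in Il22r-/-, with Emcn, Cldn5 and Tie1 at 0 reads in Il22r+/+. Of 5 tested endothelial markers 2 were higher, Pecam1 with 6, 6 and 12 against 19, 32 and 17 reads and Kdr with 3, 0 and 4 against 12, 22 and 10, and Tek was lower. Cdh5, Pecam1 and Kdr each had their most reads in Il22r-/- replicate 2, and the part of endothelial cells in the Cdh5 value was not tested.

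The remaining 15 cadherin genes were at or near the floor. Cdh7, Cdh8, Cdh12 and Cdh22 had 0 reads in all libraries, which allows up to 0.0591 CPM over the Il22r+/+ libraries together and 0.0566 CPM over those of Il22r-/-. The other 11, among them Cdh1, had 1 to 29 reads in all.

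**Figure D2:**
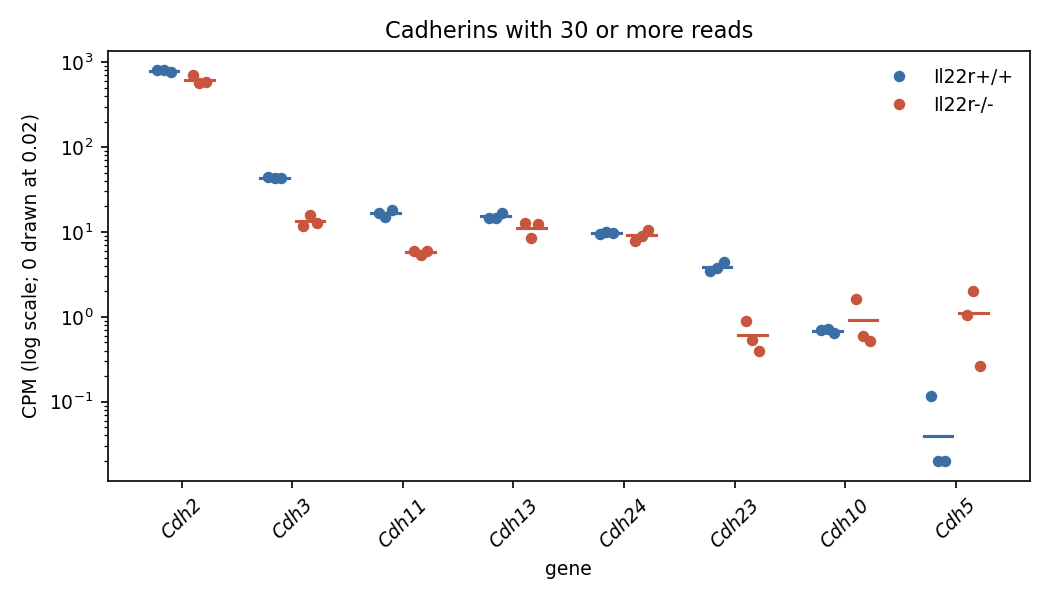
CPM on a log scale of the 8 cadherin genes with 30 or more reads, with a point for each library and a bar at the mean of the 3 libraries of a genotype. Cdh3, Cdh11 and Cdh23 show no overlap between Il22r+/+ and Il22r-/-, and the Cdh2 libraries lie between 562 and 803 CPM.

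Protocadherins outside the clusters moved in both directions, 3 higher and 1 lower of 7 tested. With only 7 genes, the 57.1% called is near the 45.7% of all tested genes. Pcdh7 was the second most abundant gene of the whole set per length (26.0 ± 1.12 FPKM in Il22r+/+) and fell, while Pcdh9, Pcdh10 and Pcdh18 rose. The 8 described solitary genes belong to the delta protocadherins, which are best studied in the developing nervous system. For 10 of the 56 described genes a promoter sequence was available from RefSeq (GRCm38.p6), reaching from 250 bases before to 50 bases after the start site. A promoter of each of the 3 solitary genes that were called higher is shown here, and shared control of these genes was not tested. Pcdh9 had a second, overlapping entry (93890620 to 93890919), which is not shown. Capitals mark each match, on either strand, to CCAAT or ATTGG, the letters of the CCAAT box bound by the general factor NF-Y. Binding was not tested, and the second match in Pcdh10 begins at base 35 after the start site.
Pcdh9, chr14:93890630-93890929, minus strand: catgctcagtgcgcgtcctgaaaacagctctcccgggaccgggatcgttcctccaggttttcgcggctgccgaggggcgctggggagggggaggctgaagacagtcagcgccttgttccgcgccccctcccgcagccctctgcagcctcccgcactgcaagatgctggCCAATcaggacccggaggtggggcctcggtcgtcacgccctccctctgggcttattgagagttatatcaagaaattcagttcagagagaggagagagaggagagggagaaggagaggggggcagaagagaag
Pcdh10, chr3:45378148-45378447, plus strand: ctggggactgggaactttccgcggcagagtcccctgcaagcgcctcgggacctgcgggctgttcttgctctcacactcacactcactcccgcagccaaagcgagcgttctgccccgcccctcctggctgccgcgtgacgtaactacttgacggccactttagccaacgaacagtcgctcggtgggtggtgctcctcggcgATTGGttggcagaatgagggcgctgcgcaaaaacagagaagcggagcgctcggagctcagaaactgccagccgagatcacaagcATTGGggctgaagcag
Pcdh18, chr3:49757267-49757566, minus strand: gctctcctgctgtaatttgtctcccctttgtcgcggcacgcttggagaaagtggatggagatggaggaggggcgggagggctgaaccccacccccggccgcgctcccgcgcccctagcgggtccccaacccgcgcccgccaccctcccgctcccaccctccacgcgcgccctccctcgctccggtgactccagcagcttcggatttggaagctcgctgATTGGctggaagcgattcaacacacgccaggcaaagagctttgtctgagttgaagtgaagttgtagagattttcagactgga

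The motif was picked after these sequences were seen. It occurred in 6 of the 10 genes whose promoter was taken, namely Pcdh8, Pcdh9, Pcdh10, Pcdh17, Pcdh18 and Pcdh19, and in 37.4% of all 32851 promoters of this length. Pcdh8 and Pcdh17 carry it and did not pass the test, with log2 fold changes of 0.21 and 0.60. Any link between the motif and the changes was not tested. The form CAGGTG or CACCTG, an E-box letter pattern bound by ZEB and SNAI repressors, was present in Pcdh7 and in none of the other 9, against 20.2% of all promoters. The 3 windows shown held 18, 24 and 23 CpG dinucleotides, against a median of 7 over all promoters. Of genes not called, Cdh24 held 30, Pcdh17 26, Pcdh8 14 and Cdh10 2. Pcdh7 and Cdh23, which fell, held 11 and 5, and the untested Pcdh19 held 18. Whether the CpG count goes with the direction of change was not tested.

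Pcdh7 (ENSMUSG00000029108, chromosome 5, 57717967 to 58133230, plus strand) had 281, 258 and 267 CPM in Il22r+/+ and 204, 186 and 220 CPM in Il22r-/-. The groups did not overlap, and the fall was 1.32-fold (log2 fold change -0.40 ± 0.08, edgeR adjusted p = 0.00285). On the opposite strand 4932441J04Rik covers 21.1% of its exon length, and whether the counting used strand is not stated in the labels. The FPKM ratio of Cdh2 to Pcdh7 was 3.88 ± 0.180 in Il22r+/+ and 4.005 ± 0.544 in Il22r-/-, a difference within the spread between libraries.

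Pcdh9 (ENSMUSG00000055421, chromosome 14, 93013410 to 93890679, minus strand) had 11.9, 15.6 and 12.4 CPM in Il22r+/+ and 26.8, 28.1 and 28.0 CPM in Il22r-/-. It rose 2.07-fold (log2 fold change 1.05 ± 0.12, edgeR adjusted p = 6.42e-05), with the Il22r-/- libraries close together. The highest adjusted p over 16 alternatives was 0.00435, and the call held in each.

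Pcdh10, also called OL-protocadherin, had 6, 5 and 6 reads in Il22r+/+ against 18, 23 and 23 in Il22r-/-. It rose 3.58-fold from this low level (log2 fold change 1.84 ± 0.41, edgeR adjusted p = 0.0039). With limma on log2(FPKM + 1) or log2(FPKM + 0.1), which compress such low values, it was not called (adjusted p up to 0.23).

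Pcdh18 had 6.26, 4.30 and 5.45 CPM in Il22r+/+ and 7.35, 7.26 and 11.03 CPM in Il22r-/-. Its rise was 1.59-fold (log2 fold change 0.67 ± 0.22, edgeR adjusted p = 0.0277). The call was lost in 6 of 16 alternatives, including those without Il22r+/+ replicate 2, without Il22r+/+ replicate 3 and without Il22r-/- replicate 3 (edgeR adjusted p = 0.106, 0.0764 and 0.0861).

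Pcdh17, Pcdh8 and Pcdh1 did not pass. Pcdh17 spread widely within Il22r-/-, at 6.41, 13.2 and 20.8 CPM against 8.77, 9.61 and 8.17 CPM in Il22r+/+ (log2 fold change 0.60 ± 0.38, edgeR adjusted p = 0.238). It was called without Il22r-/- replicate 1 (edgeR adjusted p = 0.00268). Pcdh8 was at 2.58 ± 0.366 and 3.00 ± 0.385 CPM and Pcdh1 at 1.99 ± 0.576 and 1.41 ± 0.355 CPM. Pcdh19, whose human counterpart is a gene of X-linked epilepsy, was below the filter with 5, 6 and 4 reads against 14, 10 and 17, a pooled ratio of 2.81 (exact 95% interval 1.52 to 5.47).

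**Figure D3:**
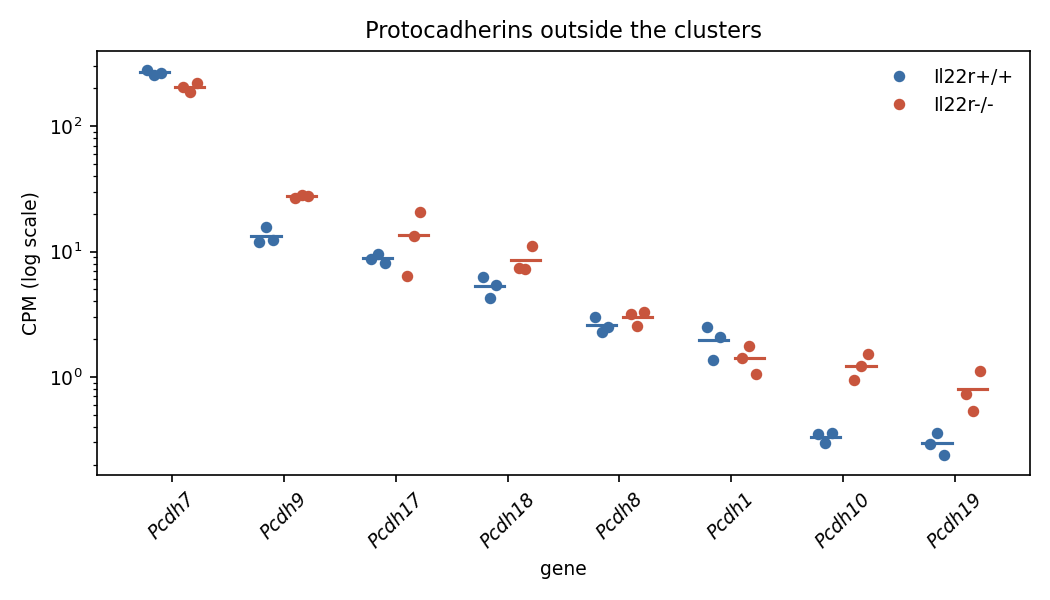
CPM on a log scale of the 8 protocadherin genes outside the clusters with 30 or more reads, with a point for each library and a bar at the mean of the 3 libraries of a genotype. Pcdh7 lies above 186 CPM in every library, Pcdh9 and Pcdh10 are higher in every Il22r-/- library, and Pcdh17 ranges from 6.41 to 20.8 CPM within Il22r-/-.

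The 3 protocadherin clusters lie next to each other on the plus strand of chromosome 18, Pcdha at 36930184 to 37187661, Pcdhb at 37264938 to 37524479 and Pcdhg at 37661793 to 37841873. Summed over its members and tested in place of them, each cluster was lower in Il22r-/-. The Pcdha sum fell 2.66-fold from 3.05 ± 0.596 to 1.13 ± 0.295 CPM (log2 fold change -1.41 ± 0.30, edgeR adjusted p = 0.00318). The Pcdhb sum fell 1.56-fold from 84.6 ± 7.90 to 54.1 ± 4.49 CPM (-0.65 ± 0.09, edgeR adjusted p = 0.000272). The Pcdhg sum fell 1.59-fold from 168.9 ± 14.3 to 106.5 ± 17.2 CPM (-0.67 ± 0.11, edgeR adjusted p = 0.000905).

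Shared exons limit what the single Pcdha and Pcdhg values hold. In the GENCODE M21 annotation, between 38.9% and 91.4% of the exon length of a Pcdha gene, and between 31.5% and 66.8% of that of a Pcdhg gene, is covered by another gene on the same strand, against at most 9.7% in Pcdhb. Pcdha4 had 0 reads in every library although other Pcdha genes that share its exons had some, so reads in shared exons were not counted for each gene that holds them. How such reads and reads matching several Pcdhb genes were assigned is likewise not stated. The FPKM values of these genes divide by the full length, shared exons included. The Pcdha and Pcdhg sums add the same counts per gene, so they may also lack reads in shared exons.

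The Pcdhb genes split by position. In chromosomal order, the tested members from Pcdhb2 to Pcdhb11 had log2 fold changes above 0 and those from Pcdhb13 to Pcdhb22 below 0. Of 7 tested genes in the first stretch, Pcdhb1 to Pcdhb12, 3 rose and 4 did not pass, with values from 0.46 to 1.70. Of 10 in the second stretch, 6 fell and 4 did not pass, with values from -1.32 to 0.00, Pcdhb15 being at -0.0013 and changing sign in 5 of 15 alternatives. The 5 untested genes of the first stretch were mixed: Pcdhb12 had more reads in Il22r-/-, Pcdhb8 fewer (11 against 3), and Pcdhb1, Pcdhb6 and Pcdhb10 had at most 12 in all. The dividing point was chosen after the values were seen, so the split is a description without a test.

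**Figure D4:**
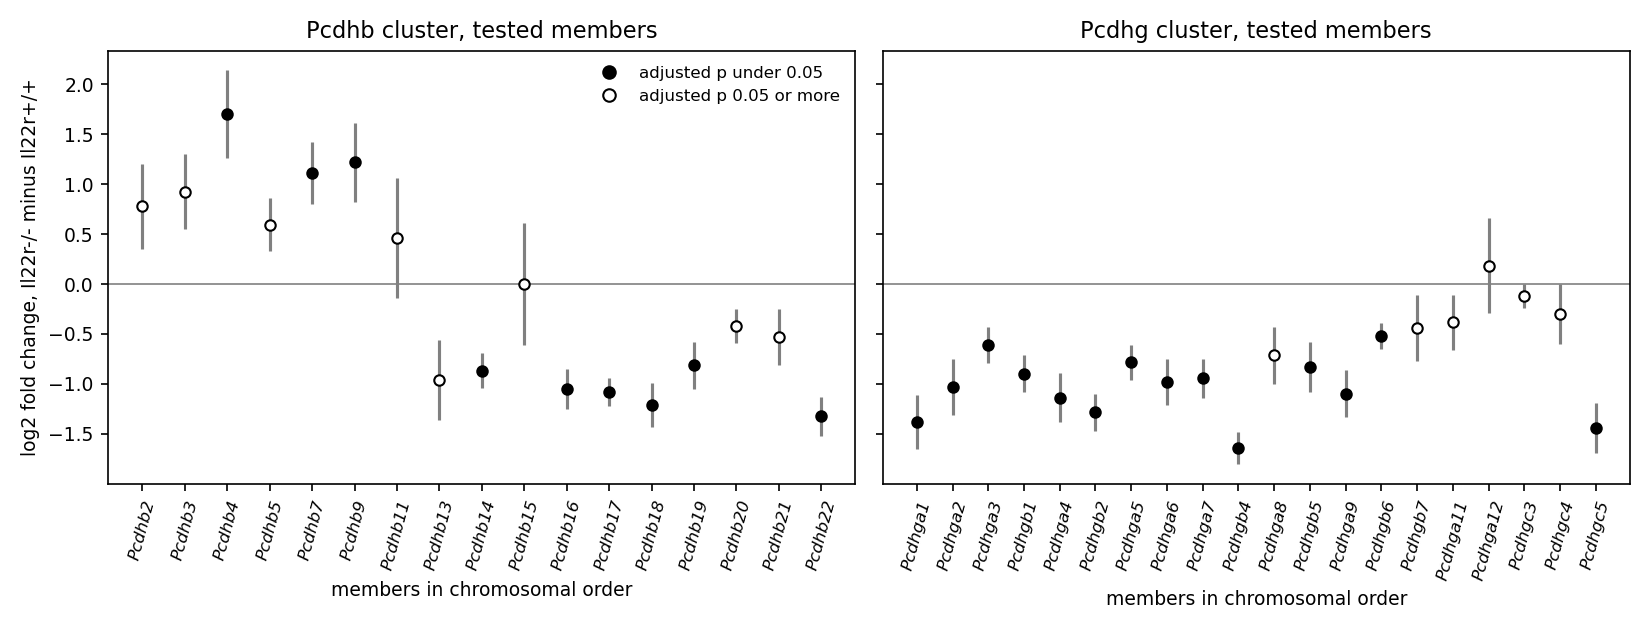
Log2 fold change (Il22r-/- minus Il22r+/+) of the tested Pcdhb (left) and Pcdhg (right) genes in chromosomal order, with the standard error of the fit as bars, filled where the adjusted p was under 0.05. Pcdhb genes up to Pcdhb11 lie above 0 and later ones at or below it, and Pcdhg genes lie below 0 except Pcdhga12 at 0.19.

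Summed per library, Pcdhb1 to Pcdhb12 had 7.90, 7.40 and 6.99 CPM in Il22r+/+ and 16.6, 11.9 and 13.3 CPM in Il22r-/-. Pcdhb13 to Pcdhb22 had 76.6, 85.2 and 69.8 CPM in Il22r+/+ and 38.6, 37.3 and 44.7 CPM in Il22r-/-. The first stretch therefore held 9.34%, 7.995% and 9.11% of the cluster's reads in Il22r+/+ and 30.1%, 24.2% and 22.9% in Il22r-/-. Since the stretches were divided where the sign of the fold change turned, these sums restate the values of the single genes and add no support to the split.

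**Figure D5:**
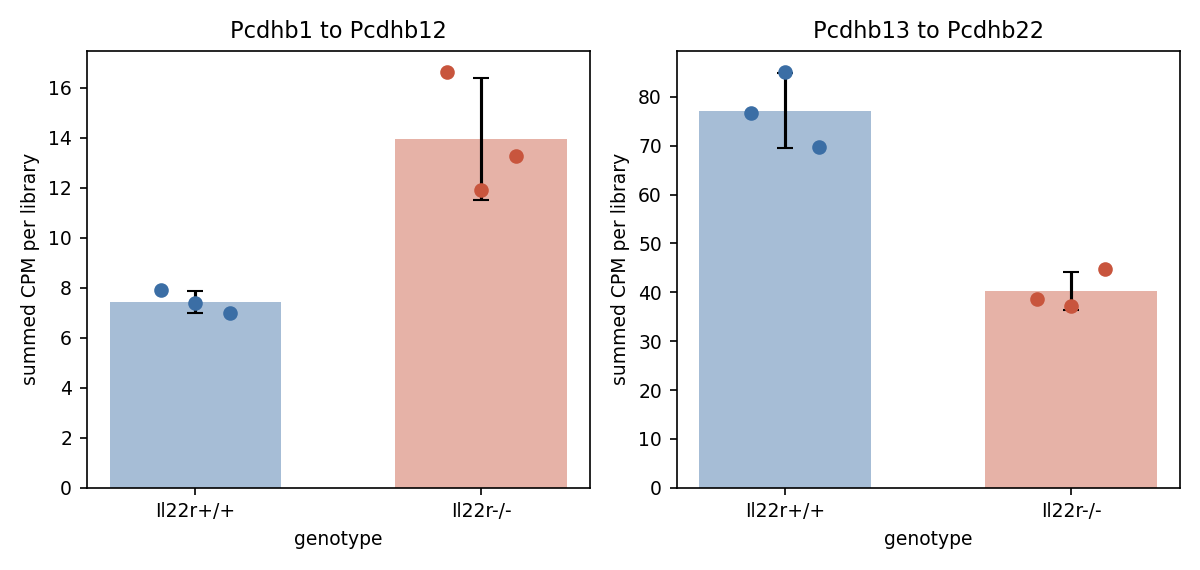
Summed CPM per library of Pcdhb1 to Pcdhb12 (left) and of Pcdhb13 to Pcdhb22 (right), with bars at the mean, error bars of 1 SD (n = 3) and a point for each library. The first stretch rises from a mean of 7.43 to 13.9 CPM and the second falls from 77.2 to 40.2 CPM.

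Pcdhb17 (ENSMUSG00000046387) was the most abundant Pcdhb gene in both genotypes, with 24.3, 25.2 and 21.9 CPM in Il22r+/+ and 12.2, 9.07 and 12.6 CPM in Il22r-/-. It fell 2.11-fold (log2 fold change -1.08 ± 0.14, edgeR adjusted p = 0.000144). Pcdhb22 fell 2.5-fold from 10.9 ± 1.44 to 4.38 ± 0.927 CPM and Pcdhb18 fell 2.32-fold from 6.23 ± 1.34 to 2.69 ± 0.118 CPM. Pcdhb14, Pcdhb16 and Pcdhb19 fell between 1.76-fold and 2.07-fold. Pcdhb19 lost its call without Il22r+/+ replicate 2 or Il22r-/- replicate 2 and in limma on unfiltered FPKM (adjusted p up to 0.1002). Pcdhb13, Pcdhb20 and Pcdhb21 also had lower means in Il22r-/- but did not pass (edgeR adjusted p = 0.0732, 0.0685 and 0.15). Pcdhb13 was called without Il22r+/+ replicate 3 (edgeR adjusted p = 0.0284).

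In the first stretch, Pcdhb4 had 5, 5 and 9 reads in Il22r+/+ against 27, 16 and 22 in Il22r-/-. It rose 3.25-fold (log2 fold change 1.70 ± 0.44, edgeR adjusted p = 0.00889). Pcdhb7 rose 2.17-fold from 1.10 ± 0.249 to 2.39 ± 0.475 CPM and Pcdhb9 2.32-fold from 0.846 ± 0.355 to 1.98 ± 0.593 CPM. Pcdhb7 lost its call without Il22r+/+ replicate 3 or Il22r-/- replicate 1, and Pcdhb9 without Il22r+/+ replicate 1, Il22r+/+ replicate 2 or Il22r-/- replicate 1 and in limma on unfiltered FPKM (adjusted p up to 0.0601 and 0.11). Pcdhb3 and Pcdhb5 had no overlap between genotypes but missed the threshold (edgeR adjusted p = 0.0671 and 0.0934). Without Il22r+/+ replicate 2, Pcdhb3 and Pcdhb2 were called higher (edgeR adjusted p = 0.0424 and 0.0349). Pcdhb12 was below the filter with 7 against 33 reads (ratio 4.85, exact 95% interval 2.11 to 12.99), and Gm37446 covers 63.5% of its exon length on the other strand.

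In the Pcdhg cluster 14 of 20 tested genes fell and none rose, against 22.1% lower and 23.6% higher of all tested genes. The 3 subfamilies of the cluster were all represented, with 8 of 11 Pcdhga genes, 5 of 6 Pcdhgb genes and 1 of 3 Pcdhgc genes lower. Pcdhga10, the only member below 30 reads, had 4, 4 and 4 reads in Il22r+/+ against none in Il22r-/-.

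Pcdhgb4 (ENSMUSG00000103585) had the lowest fitted value in the cluster, with 13.5, 13.3 and 15.1 CPM in Il22r+/+ and 3.94, 4.16 and 5.39 CPM in Il22r-/-. It fell 3.12-fold (log2 fold change -1.64 ± 0.16, edgeR adjusted p = 2.44e-05). Pcdhgc5 fell 2.71-fold from 4.49 ± 0.922 to 1.65 ± 0.128 CPM, Pcdhga1 2.6-fold from 2.72 ± 0.309 to 1.04 ± 0.0645 CPM, and Pcdhgb2 2.43-fold from 10.7 ± 1.73 to 4.40 ± 0.557 CPM. Pcdhgb6, the second most abundant member by reads over all 6 libraries, fell 1.43-fold from 15.2 ± 1.37 to 10.6 ± 0.879 CPM. Pcdhga5, next by reads summed over all 6 libraries, fell 1.72-fold from 12.8 ± 1.74 to 7.44 ± 1.35 CPM. The other 8 that passed fell between 1.53-fold and 2.2-fold. Of these, Pcdhga2 lost its call without Il22r+/+ replicate 1, Pcdhga3 without Il22r+/+ replicate 1 or 2, and Pcdhgb5 without Il22r+/+ replicate 2, Il22r+/+ replicate 3 or Il22r-/- replicate 2, and all 3 in limma on unfiltered FPKM (adjusted p up to 0.0725, 0.0713 and 0.118).

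The Pcdhg genes that did not pass lay mostly towards the end of the locus. From Pcdhgb7 to Pcdhgc4, 5 genes in a row were not called, and the last gene, Pcdhgc5, fell. All of the 5 but Pcdhga12 had log2 fold changes below 0. This run was noticed after the values were seen, so it is a description without a test. Pcdhgc3, whose protein is among the most widely expressed gamma protocadherins, had the most reads of any clustered gene, with 41.9, 41.6 and 37.8 CPM in Il22r+/+ and 34.0, 33.2 and 44.9 CPM in Il22r-/-. The groups overlapped (log2 fold change -0.12 ± 0.12, edgeR adjusted p = 0.448), and without Il22r-/- replicate 3 it was called lower (-0.29, edgeR adjusted p = 0.0103). As the rest of the cluster fell, the share of its reads on Pcdhgc3 was 24.8%, 22.7% and 24.5% in Il22r+/+ and 34.3%, 35.2% and 35.6% in Il22r-/-. BC037039 covers 28.4% of the Pcdhgc3 exon length on the opposite strand.

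Pcdhga12 was decided by a single library. It had 18, 56 and 14 reads in Il22r+/+ against 37, 39 and 29 in Il22r-/-, with a log2 fold change of 0.19 ± 0.47 (edgeR adjusted p = 0.775), and without Il22r+/+ replicate 2 the change was 1.07 (edgeR adjusted p = 0.0357). Pcdhgb7 likewise was called lower without Il22r-/- replicate 3 (edgeR adjusted p = 0.0115). Pcdhga8 (edgeR adjusted p = 0.0624) was called lower without that library (edgeR adjusted p = 0.0205) and, with all libraries, in limma-voom and in limma on log2(FPKM + 1) (limma adjusted p = 0.0496 and 0.0477).

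The Pcdha cluster was hardly expressed, with 59, 56 and 40 reads over its 14 genes in Il22r+/+ and 28, 19 and 14 in Il22r-/-. Pcdha11 and Pcdha12 were the only members with 30 or more. Pcdha12 had 13, 14 and 12 reads against 6, 3 and 0 (log2 fold change -2.15 ± 0.65, edgeR adjusted p = 0.0198). This call was lost without Il22r+/+ replicate 1, Il22r+/+ replicate 2 or Il22r-/- replicate 2 (edgeR adjusted p up to 0.0553), and the value was -3.04 without Il22r-/- replicate 1. Pcdha11 (ENSMUSG00000007440) had 23, 17 and 9 against 9, 5 and 13 reads and did not pass (edgeR adjusted p = 0.184). A second gene of that name (ENSMUSG00000102206) had 1 read in all. Pcdha9, next by reads, had 5, 9 and 6 against 0, 2 and 1.

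Partners tie cadherins to the cytoskeleton. Of 14 tested catenins and adaptors 3 rose and 2 fell, with a median log2 fold change of -0.08. Here and for the lists that follow, 23.6% of all tested genes were called higher and 22.1% lower, with a median of 0.03. Vcl, which encodes the actin-binding adaptor vinculin, fell 2.24-fold from 597.5 ± 2.34 to 266.6 ± 21.1 CPM, and Jup, plakoglobin, fell 1.78-fold from 224.6 ± 9.37 to 126.5 ± 19.0 CPM. Pkp4, an armadillo-repeat protein, rose 1.57-fold from 46.7 ± 1.23 to 73.1 ± 3.88 CPM, and Ctnna3 rose 3.87-fold from 0.414 ± 0.121 to 1.63 ± 0.389 CPM. The core partners did not pass: Ctnnb1, beta-catenin, was at 648.8 ± 18.4 and 600.1 ± 8.07 CPM and Ctnna1, alpha-catenin, at 446.6 ± 10.5 and 433.8 ± 11.8 CPM (edgeR adjusted p = 0.254 and 0.677). Nectins, which join cells beside cadherins, went both ways, with Nectin3 2.8-fold higher and Nectin2 1.7-fold lower of 3 tested.

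Proteases that process cadherins were lower in 4 of 8 cases and higher in none, with a median of -0.23. The share called in either direction was close to the 45.7% of all tested genes. The proprotein convertase genes Pcsk5 and Furin fell 2.4-fold and 1.36-fold, from 276.7 ± 28.9 to 115.5 ± 12.0 CPM and from 210.1 ± 12.4 to 154.2 ± 24.6 CPM. The gamma-secretase genes Psen2 and Ncstn fell 1.54-fold and 1.19-fold, and Ncstn lost its call in 7 of 16 alternatives, including library size as the only scaling and the fits with a library left out other than Il22r-/- replicate 3 (adjusted p up to 0.13). Adam10, the main sheddase of N-cadherin, was at 193.5 ± 14.0 and 204.4 ± 11.4 CPM (edgeR adjusted p = 0.458).

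Of 7 tested regulators of cadherin transcription 4 rose and none fell, with a median of 0.27. Klf8 rose 3.4-fold from 2.07 ± 0.459 to 7.07 ± 0.586 CPM, and Tcf4 and Zeb2 rose 1.23-fold and 1.20-fold. Snai2, a repressor of E-cadherin, was at 0.609 ± 0.339 and 1.38 ± 0.284 CPM, and its call (edgeR adjusted p = 0.0457) was lost with the DESeq2 Wald test (adjusted p = 0.0791), in limma on unfiltered FPKM, and without Il22r+/+ replicate 2 or 3 or Il22r-/- replicate 1 or 2 (edgeR adjusted p up to 0.148). Zeb2 lost its call in 6 alternatives, among them each fit with an Il22r+/+ library left out (edgeR adjusted p up to 0.0666), and Tcf4 in limma on unfiltered FPKM (adjusted p = 0.0568).

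Genes of clustered protocadherin promoter choice and signalling were higher in 11 and lower in 4 of 19 cases, with a median of 0.27. Promoter choice in these clusters uses DNA methylation and looping by CTCF and cohesin. Ctcf and the cohesin genes Rad21, Smc1a, Smc3, Stag1 and Stag2 were called higher, by 1.19-fold to 1.37-fold. Stag1 and Stag2 were nearest the threshold (edgeR adjusted p = 0.0239 and 0.0188), and whether these calls hold in the alternatives was not examined. Nipbl and Wapl, on the same list, did not pass (edgeR adjusted p = 0.0798 and 0.0958). The DNA methyltransferase genes moved in both directions. Dnmt3b and Dnmt1 rose 3.13-fold from 1.96 ± 0.969 CPM and 1.44-fold from 78.7 ± 2.39 CPM. Dnmt3a fell 1.22-fold from 243.2 ± 11.3 to 199.5 ± 8.81 CPM, a call lost with library size alone and without Il22r+/+ replicate 1 (edgeR adjusted p = 0.0572 and 0.0631). Among partners of the protocadherin cytoplasmic part, Ptk2b, a kinase that gamma protocadherins inhibit, fell 2.09-fold from 99.8 ± 5.69 to 47.7 ± 3.12 CPM. Wasf1, of the actin-regulating WAVE complex, rose 1.72-fold, while Abi1, of the same complex, fell 1.20-fold (edgeR adjusted p = 0.0105). Cyfip1 and Nckap1, also of that complex, did not pass (edgeR adjusted p = 0.084 and 0.372). Ptk2 fell 1.18-fold (edgeR adjusted p = 0.0333). The Abi1 and Ptk2 calls were likewise not examined in the alternatives.

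Other genes of the cadherin superfamily, outside the names that define the set, rose in 6 and fell in 2 of 12 tested cases, with a median of 0.44. The desmosomal cadherin gene Dsc2 rose 3.24-fold from 3.88 ± 0.183 to 12.6 ± 2.31 CPM. The giant cadherin genes Fat4 and Dchs2, whose families act in planar cell polarity, rose 4.49-fold from 0.393 ± 0.219 CPM and 1.86-fold from 5.93 ± 1.00 CPM. Of the Celsr cadherins of the same process, Celsr1 rose 1.58-fold from 10.1 ± 1.08 CPM and Celsr2 fell 1.58-fold from 71.0 ± 6.02 to 45.05 ± 9.72 CPM. The Celsr1 call was lost in limma on unfiltered FPKM (adjusted p = 0.0903), and that of Fat4 was lost in limma on log2(FPKM + 1) with the filter (adjusted p = 0.107).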

How the data were processed

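RNA-seq libraries from cultured granulosa cells of 3 Il22r+/+ and 3 Il22r-/- samples were grouped by their titles. The authors deposited raw read counts per gene and, from the same reads, FPKM values (reads per length and library total). The counter was featureCounts 1.5.0-p3 and the build mm10, per the submitters' processing notes. Aligner and strand setting: not given in the sources used here. All 92 genes had the same coordinates in GENCODE M21, which gave the exon overlaps.

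Genes passing filterByExpr (15227) were scaled by TMM and tested with the robust quasi-likelihood fit of edgeR 4.0.16 in R 4.3.3, genotype being the only term. Adjustment was by Benjamini-Hochberg over all tested genes, with calls at an adjusted p under 0.05. Standard errors were derived from the log2 fold change and its F statistic, CPM use the TMM scale, and ± on levels and on FPKM ratios is 1 SD over 3 libraries. Replicates differed by more than sampling noise, and since no label says that they came from separate animals or cultures, p-values measure only the spread between them, which may be technical. Ratios of pooled reads are per library size without TMM, intervals are exact at 95%, and the floor of 0 reads is 3 counts.

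Alternatives were DESeq2 1.42.0, its size factors, library size alone, limma 3.58.1 (voom, and on log2 FPKM), other filters, a replicate block and each library left out. The fit was first tested on simulated counts with known changes. In that simulation few genes changed, evenly up and down, and all genes shared the same variability. It therefore does not check the scaling under the many changes of these data.

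Every member outside the clusters with 30 or more reads, the 3 of each cluster with the most reads over all libraries, and up to 4 called genes of each list by size of change were named by rule. The rest were named after their values were seen. Members and lists were chosen with earlier results of these data known.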

Additional observations from a re-analysis of the deposited data

How the results depend on the processing

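Of the 33 called genes of the set, 22 kept their call in every alternative run and 11 lost it in at least 1, none with a change of sign. Of the 20 that were not called, 9 were called in at least 1 alternative. Genes of the set called lower numbered 21 to 30 and called higher 4 to 8, while 5372 to 8120 of all genes were called. The sums of the Pcdha, Pcdhb and Pcdhg clusters kept their call and direction in every alternative run, which for sums were the scalings, the block and the fits with a library left out.

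Sign changes occurred in 4 uncalled genes, and the cause was not tested. With library size alone, Cdh24 had a log2 fold change of 0.0060 and Pcdhb15 of 0.10. Pcdhb15 was at 0.080 in limma-voom, and ranged from -0.35 to 0.55 with a library left out. Cdh10 ranged from -0.31 to 0.66 and Pcdhga12 from -0.15 to 1.07 with a library left out.

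No pairing by replicate number is stated in the labels. Deviations of same-numbered libraries correlated at 0.026, -0.041 and -0.028, and only number 1 matched best with itself. With 3 libraries a genotype, these values cannot show whether a weak pairing exists. With the replicate block, 6405 genes were called, 6 of the set higher and 27 lower, the cluster sums were -1.43, -0.64 and -0.67, and Pcdhb15 was at 0.019. The filter on low counts kept from the test the 5 genes with no read, the 31 with 1 to 29 reads and 3 of the 56 others.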
